A study of Mus musculus with 27 samples.

Results

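The 10 genes described here encode the TGFβ ligands (Tgfb1, Tgfb2 and Tgfb3), their receptors (Tgfbr1, Tgfbr2 and Tgfbr3), the signal transducer Smad3 and the feedback inhibitors Smad7, Skil and Tgif1. They were taken by name from the 24454 genes of the deposited table, all 10 were found, and all 10 passed the filter on low values described below. RNA-sequencing was done on 9 cell lines established from thoracic mammary tumours of MMTV-PyMT mice on the FVB/N background, so that all lines share the polyoma middle T oncogene driven by a mammary promoter. The 4 genotypes differed in the coactivators Bcl9 and Bcl9L (B9/B9L). ΔHD1/fl and ΔHD2/fl lines carried B9/B9L lacking the HD1 domain, which binds Pygopus, or the HD2 domain, which binds β-catenin, next to a floxed wild-type copy. In ΔHD1/- and ΔHD2/- lines the floxed copy had been removed with an adenovirus expressing Cre and GFP, and cells were sorted for GFP. The methods of the study also describe a control virus without Cre, and whether the floxed lines received it and were sorted is not given in the sources used here. Each line was kept without cytokine (4 days), or received TGFβ at 2 ng/ml for 4 days or Wnt3a at 100 ng/ml for 3 days, which gave 27 libraries from 2 lines of each genotype and 3 lines of ΔHD2/-. The length of treatment therefore differed between Wnt3a and the other treatments. Replicates were different cell lines from different mice, and lines are numbered within a genotype as in the labels.

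TGFβ ligands are secreted in a latent form and, once released, bring together the type II receptor Tgfbr2 and the type I receptor Tgfbr1. Tgfbr1 then phosphorylates Smad2 and Smad3, which join Smad4 and enter the nucleus. Tgfbr3 (betaglycan) is a coreceptor without kinase activity that presents ligand, Tgfb2 in particular. Smad7 blocks the type I receptor and recruits ubiquitin ligases to it, Skil (SnoN) represses Smad complexes on DNA, and Tgif1 is a homeodomain corepressor of Smad2 and Smad3. In mammary epithelium the pathway is known both for restraining proliferation and for driving epithelial-mesenchymal transition (EMT) in tumour cells.

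Smad proteins bind a short DNA element, CAGAC or its reverse complement GTCTG. Promoters were looked up in RefSeq sequences of GRCm38.p6, where 6 of the 10 members had an entry (Tgfb1, Tgfb2, Tgfbr1, Tgfbr2, Smad3 and Tgif1, with 11 start sites in all). The 250 bases before the start are printed for Tgif1 and Tgfbr2, whose levels moved with TGFβ in most lines as described below, with CAGAC and GTCTG in capitals. The first Tgif1 window is chr17:70853533-70853782 and holds 1 match, 201 bases before the start. The second belongs to a start within the gene, chr17:70851735-70851984, with matches 191 and 59 bases before the start. The Tgfbr2 window is chr9:116175364-116175613, with 1 match 160 bases before the start. All are given 5′ to 3′ on the minus strand.
Tgif1, first start: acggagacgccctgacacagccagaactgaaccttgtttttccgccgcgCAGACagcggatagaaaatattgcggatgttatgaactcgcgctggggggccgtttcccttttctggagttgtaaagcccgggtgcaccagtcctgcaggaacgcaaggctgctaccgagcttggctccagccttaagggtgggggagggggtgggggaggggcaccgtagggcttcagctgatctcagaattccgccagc
Tgif1, second start: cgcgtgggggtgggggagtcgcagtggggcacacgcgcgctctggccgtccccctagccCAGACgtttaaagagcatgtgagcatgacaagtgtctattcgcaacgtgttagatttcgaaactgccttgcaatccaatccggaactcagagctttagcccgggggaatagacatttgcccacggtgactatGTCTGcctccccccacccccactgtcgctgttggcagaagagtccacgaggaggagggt
Tgfbr2: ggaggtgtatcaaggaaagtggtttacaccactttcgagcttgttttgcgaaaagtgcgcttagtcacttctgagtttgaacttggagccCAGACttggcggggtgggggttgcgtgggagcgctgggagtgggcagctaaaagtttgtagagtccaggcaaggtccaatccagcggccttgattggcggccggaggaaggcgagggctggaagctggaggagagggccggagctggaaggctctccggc
CAGAC on either strand was present in 6 of the 11 member windows, against 42.2% of 32851 windows of the same length before all starts. The palindrome GTCTAGAC (0.167% of all windows) and the AP-1 motif TGANTCA (6.75%) had no match in the member windows, and CTTTGAT or its reverse complement ATCAAAG, the element of Tcf factors (3.21%), matched once, before a further Tgif1 start at chr17:70846778-70847027. A match of letters is a description and not a bound site.

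Before the results, the lines were compared with their label as tumour cells of epithelial origin. Libraries held 21.86 to 33.69 M reads (median 25.96 M). In untreated cells of 7 lines the epithelial cadherin Cdh1 lay between 606.5 and 1145 CPM (reads per 1000000 reads assigned to genes). It measured only 0.52 CPM in line 2 of ΔHD1/fl and 0.24 CPM in line 2 of ΔHD1/-, where Esrp1 and Cldn4 had no reads, although the methods of the study state that fibroblasts had been removed by differential trypsinization. Both lines also carried the fibroblast-type receptor Pdgfra, at 415.7 and 629 CPM against at most 15.4 CPM in the other lines. The summed level of 8 fibroblast markers was 1789 and 2140 CPM in these lines and 3.64 to 481.2 CPM in the other untreated lines. Not all of the list took part. Lum and Fap were under 1 CPM everywhere, and Thy1 and Dcn reached at most 1.77 and 1.51 CPM in untreated lines. The summed epithelial list ran from 358 CPM in ΔHD1/fl line 2 to 20050 CPM. For ΔHD1/- line 2 this sum was 1315 CPM, with 3 of 8 listed genes at 0, so the list as a whole was not absent there. With TGFβ its epithelial sum stood at 3005 CPM, with 1 gene at 0, and its fibroblast sum at 873 CPM. The other line low in Cdh1 differed, with an epithelial sum of 39.8 CPM under TGFβ and a fibroblast sum of 1046 CPM. In untreated cells leukocyte markers summed to at most 16.8 CPM outside ΔHD1/- line 2, where Csf1r alone reached 165.5 CPM and Tyrobp had no reads, and endothelial markers to at most 2.07 CPM. The marker sums also moved with treatment. The epithelial sum had a median over lines of 4797 CPM without cytokine (highest 20050), 6511 with Wnt3a and 4548 with TGFβ (range 39.8 to 7438), and the fibroblast sum 211.6, 18.84 and 249.1 CPM. The part of cell type in the results was not tested, and the mean responses to the cytokines were also fitted without both ΔHD1 lines numbered 2. ΔHD2/- lines 2 and 3 lay close together in several members (Tgfb3, Tgfbr3, Smad7 and Tgif1, below), and whether they are independent was not tested. In bulk RNA, fewer cells of a type and less RNA per cell cannot be told apart.

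Without cytokine, all members but Tgfbr3 were above 1 CPM in every line. Compared per length of exon, so that genes can be set against each other, the order of median levels was Tgfb3 (41.8 CPM per kb), Tgfbr2 (22.9), Tgif1 (18.7), Smad3 (18.7), Smad7 (9.6), Skil (8.49), Tgfbr1 (7.85), Tgfb1 (4.85), Tgfbr3 (3.82) and Tgfb2 (1.27 CPM per kb). The ranges over lines overlapped for every pair of neighbours in this order. Tgfb3 was thus the most abundant ligand by median and Tgfb2 the least, although in ΔHD2/- lines 2 and 3 Tgfb3 stood below Tgfb1.

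**Figure D1:**
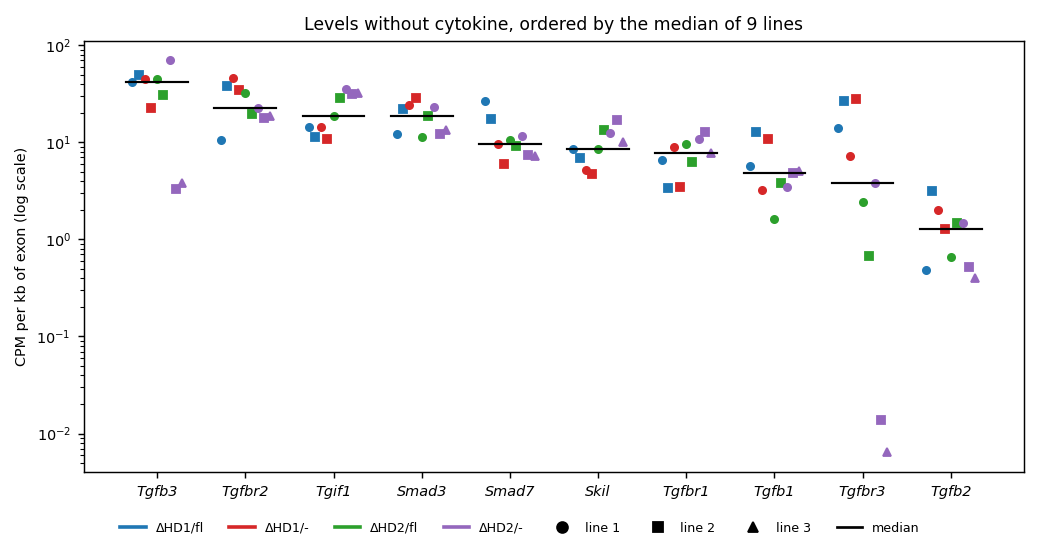
Level of each member without cytokine in CPM per kb of exon on a log axis, 1 point per cell line (colour for genotype, shape for line number) with the median of 9 lines as a bar. Tgfbr3 spanned the widest range, from 0.0064 to 27.7 CPM per kb, and both low Tgfb3 points belong to ΔHD2/- lines 2 and 3.

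Among the ligands, Tgfb3 (chr12:86056745-86079041, minus strand) ranged from 76.96 to 236.8 CPM in 7 untreated lines. In ΔHD2/- lines 2 and 3 it stood at 11.3 and 12.9 CPM, apart from all the others. Tgfb1 (chr7:25687002-25705077) was highest in the 2 lines low in Cdh1, ΔHD1/fl line 2 (64.6 CPM) and ΔHD1/- line 2 (54.3 CPM), and ranged from 8.1 to 28.6 CPM elsewhere. Tgfb2 (chr1:186622792-186705989, minus strand) was low throughout, with a lowest, median and highest level of 2.3, 7.33 and 18.1 CPM. Tgfb3 and Tgfb2 each overlap annotated genes on the opposite strand, Ttll5 among them for Tgfb3. The counting is not stated to have used strand, so reads from such partners cannot be told apart.

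Of the receptors, Tgfbr2 (chr9:116084293-116175360, minus strand) measured 86 CPM in ΔHD1/fl line 1 and 313.4 in line 2, 377.9 and 284.7 in ΔHD1/-, 262.8 and 160.9 in ΔHD2/fl, and 187.1, 144.8 and 152.6 CPM in ΔHD2/-. The ΔHD1/fl lines lay far apart, 1 below every other line and 1 near the top. Tgfbr1 (chr4:47353222-47414931) was between 40.8 and 83.6 CPM in the 7 lines with high Cdh1 and at 22.0 and 22.8 CPM in the 2 lines low in Cdh1. Tgfbr3 (chr5:107106570-107289629, minus strand) showed the opposite order. It was highest in those 2 lines (176.2 and 181 CPM), intermediate in ΔHD1/fl line 1 (91.3 CPM) and ΔHD1/- line 1 (47.8 CPM), and between 4.41 and 25 CPM in 3 of the ΔHD2 lines. In ΔHD2/- lines 2 and 3 it was represented by 2 reads and 1 read, which is below the 3 reads that a count of 0 would allow (0.089 to 0.137 CPM, counting error only). These line differences were seen after the lines had been set apart by their markers and carry no test.

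Smad3 (chr9:63646767-63757994, minus strand) varied least between lines, with 63.2 to 159.6 CPM and a ratio of the highest to the lowest line of 2.52. Smad7 was highest in both ΔHD1/fl lines (119.3 and 78.7 CPM) and lay between 26.9 and 52.8 CPM in the other 7 lines. Skil (chr3:31095058-31122577) ranged from 46 CPM in ΔHD1/- line 2 to 164.4 CPM in ΔHD2/- line 2. Tgif1 (chr17:70844205-70853546, minus strand) stood at 61.3 to 81.1 CPM in the 4 ΔHD1 lines and at 105.2 to 197.5 CPM in the 5 ΔHD2 lines.

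**Figure D2:**
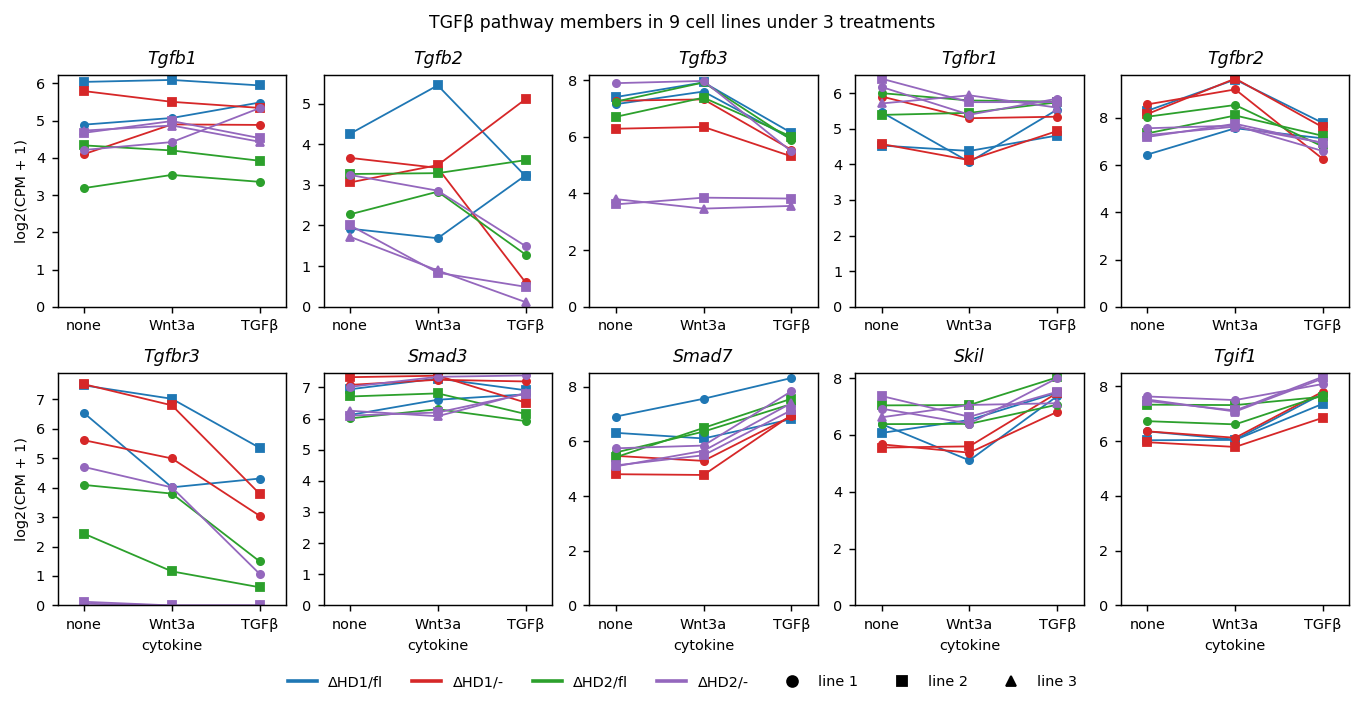
Level of each member as log2(CPM + 1) in 9 cell lines with no cytokine, Wnt3a or TGFβ, with a line joining the libraries of 1 cell line. Smad7, Skil and Tgif1 were higher with TGFβ than without cytokine in 9 of 9 lines, Tgfbr3 was lower in the 7 lines that had the transcript, and Tgfb3 stayed between 10.1 and 13.4 CPM in ΔHD2/- lines 2 and 3.

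The comparison of recombined with floxed lines asked whether losing the wild-type copy of B9/B9L changed the pathway. With all 9 lines, no member was called in either family under any of the 3 treatments, nor by edgeR, while Smad7 was called under 1 treatment with the line number as a block. A gene was called at an adjusted p of at most 0.05 and a log2 fold change of at least 1 in either direction, by limma on log2(CPM + 1) with Benjamini-Hochberg adjustment over the 13270 genes that reached 1 CPM in at least 2 libraries. The share of all genes called was 0.0678% (ΔHD1, no cytokine), 0.0452% (Wnt3a) and 0.0301% (TGFβ), and 0.55%, 0.686% and 0.354% in the ΔHD2 family. At an unadjusted p of at most 0.05, 644, 777 and 1091 genes passed in the ΔHD1 family and 1143, 1146 and 1059 in the ΔHD2 family.

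The member with the lowest unadjusted p was Smad7 (0.000956 with Wnt3a), at lower values in ΔHD1/- than in ΔHD1/fl. Without cytokine it was at 43.4 and 26.9 CPM in ΔHD1/- against 119.3 and 78.7 CPM in ΔHD1/fl. With Wnt3a the values were 38.1 and 26.4 CPM against 188 and 68.1 CPM. The log2 differences were -1.48 ± 0.45 (SE, adjusted p 0.591) and -1.80 ± 0.45 (adjusted p 0.359). With the line number as a block the adjusted p was 0.0663 and 0.0225, so that Smad7 was called under Wnt3a, against 0.309% of all genes, though not with the block in edgeR (adjusted p 0.0586). Leaving out ΔHD1/fl line 2 leaves 1 fl line, assumed to vary like the others. The Smad7 difference was then -1.77 without cytokine, -2.53 with Wnt3a and -1.38 with TGFβ. That of Tgfbr2 was 1.92 without cytokine and 1.87 with Wnt3a. Leaving out ΔHD1/fl line 1 instead gave a smaller difference for Smad7, -1.18 without cytokine and -1.08 with Wnt3a. On leaving out 1 of the ΔHD1/- lines it was -1.14 to -2.06 under these treatments. The share of all genes called in these fits is not given here, so only the sizes of the differences are given. On leaving out both ΔHD1 lines numbered 2, each ΔHD1 genotype is 1 line that is assumed to vary like the others, and Smad7 was then called under Wnt3a (-2.27, adjusted p 0.00479, 4.87% of all genes) and Tgfbr2 without cytokine (2.12, adjusted p 0.0177, 1.47% of all genes) and with Wnt3a (1.64, adjusted p 0.0242). With TGFβ, Smad7 was at 120.3 and 123.9 CPM in ΔHD1/- and lay within the range of ΔHD1/fl (111.5 to 318.8 CPM).

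In the ΔHD2 family the calls depended on ΔHD2/- line 1. Tgfb3 was 236.8 CPM in that untreated line and 11.3 and 12.9 CPM in lines 2 and 3, against 150.3 and 103.3 CPM in ΔHD2/fl, so the groups overlapped (log2 difference -1.87 ± 1.16, adjusted p 0.688). Without ΔHD2/- line 1 the log2 difference of Tgfb3 was -3.27 without cytokine (adjusted p 4.38e-05), -3.99 with Wnt3a (adjusted p 6.16e-06) and -2.26 with TGFβ (adjusted p 0.0016), a contrast that rests on the 2 similar lines. The share of all genes called in that fit is not given here, so these values do not set Tgfb3 apart from other genes. For the responses described next, no difference in a member's response between a recombined and its floxed genotype was called in any of 40 tests with all 9 lines, nor by edgeR. The share of all genes called in these differences was 0.00754% (TGFβ) and 0% (Wnt3a) in the ΔHD1 family, and 0.0301% and 0.0151% in the ΔHD2 family, and 130, 15, 179 and 74 genes had an unadjusted p of at most 0.05. With both ΔHD1 lines numbered 2 left out, the difference in TGFβ response between the single ΔHD1/- and the single ΔHD1/fl line left was called for Tgfbr2 (-3.00, adjusted p 0.0489), against 0.208% of all genes. With the cell line as a block it was called for Tgfbr2 (adjusted p 0.0234) and Tgfb2 (-4.38, adjusted p 0.0273), against 3.71% of all genes.

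With TGFβ the inhibitors Smad7 and Skil rose and the coreceptor Tgfbr3 fell in the mean over the 4 genotypes, and these 3 of 10 members were called, against 5.42% of all genes. Tgif1 was higher in 9 of 9 lines but fell just short of the fold limit. The ligand Tgfb3 and the receptor Tgfbr2 were lower in 8 of 9 lines, and Tgfb3 was called once differences between lines were taken out. Tgfb1, Tgfbr1 and Smad3 had mean log2 changes of -0.06 to 0.13. TGFβ called 247 genes as higher and 472 as lower, and the median change over all genes was -0.16, which became -0.02 with median-of-ratios scaling (317 higher, 316 lower). Mean changes over genotypes are therefore to be read against -0.16, and those in a single genotype against a median of -0.21 to -0.09. The median change of the members was -0.01.

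Smad7, the inhibitor of the type I receptor, rose most of the 10 members. It went from 119.3 to 318.8 CPM in ΔHD1/fl line 1, from 78.7 to 111.5 in line 2, from 43.4 to 120.3 and from 26.9 to 123.9 CPM in ΔHD1/- lines 1 and 2. In the ΔHD2 lines it went from 47.4 to 164.5 and from 41.9 to 188.1 (ΔHD2/fl), and from 52.8 to 227.7, from 33.9 to 140.2 and from 33 to 168.2 CPM (ΔHD2/-). The only overlap between treated and untreated libraries was that of the 2 ΔHD1/fl lines, whose untreated level was the highest. Excluding ΔHD1/fl line 2 (1.42-fold), the ratio of treated to untreated CPM was 2.67 to 5.09. The mean log2 change was 1.71 ± 0.22 (SE, 9 lines, adjusted p 9.3e-05), and it was 1.74 (adjusted p 5.87e-05) without both ΔHD1 lines numbered 2. Smad7 was called in each of the 30 alternatives tried.

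Skil, also an inhibitor that Smads induce, was at 46, 82.3 and 164.4 CPM (lowest, median and highest line) without cytokine and at 111.3, 177.3 and 259.9 CPM with TGFβ. It was higher in 9 of 9 lines, though the ranges overlapped, and the change was smallest in ΔHD2/- line 2 (0.15) and largest in ΔHD1/- line 2 (1.92). The mean log2 change of 1.04 ± 0.21 (adjusted p 0.00298) lay close to the fold limit. It fell below it without ΔHD2/fl line 2 (0.9975), without ΔHD1/- line 2 (0.94), without ΔHD2/- line 1 (0.97) or without ΔHD1/fl line 2 (0.98), with adjusted p of 0.00595 to 0.024, and without both ΔHD1 lines numbered 2 it was 0.88 (adjusted p 0.0277).

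Tgif1 was at 61.3, 105.2 and 197.5 CPM (lowest, median and highest line) without cytokine and at 115, 213 and 326.6 CPM with TGFβ. It was higher in 9 of 9 lines, least in ΔHD2/fl line 2 (160.3 to 196.3 CPM) and most in ΔHD1/- line 1 (81.1 to 223.9 CPM). With a mean log2 change of 0.97 ± 0.14 (adjusted p 0.000272) it passed the p threshold and narrowly missed the fold limit. It passed both with median-of-ratios scaling (1.14), without ΔHD1/- line 2 (1.03), without ΔHD2/fl line 2 (1.05) and without both ΔHD1 lines numbered 2 (1.04, adjusted p 0.00102). The printed Tgif1 windows belong to this gene, and the files do not tell from which start the reads came.

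**Figure D3:**
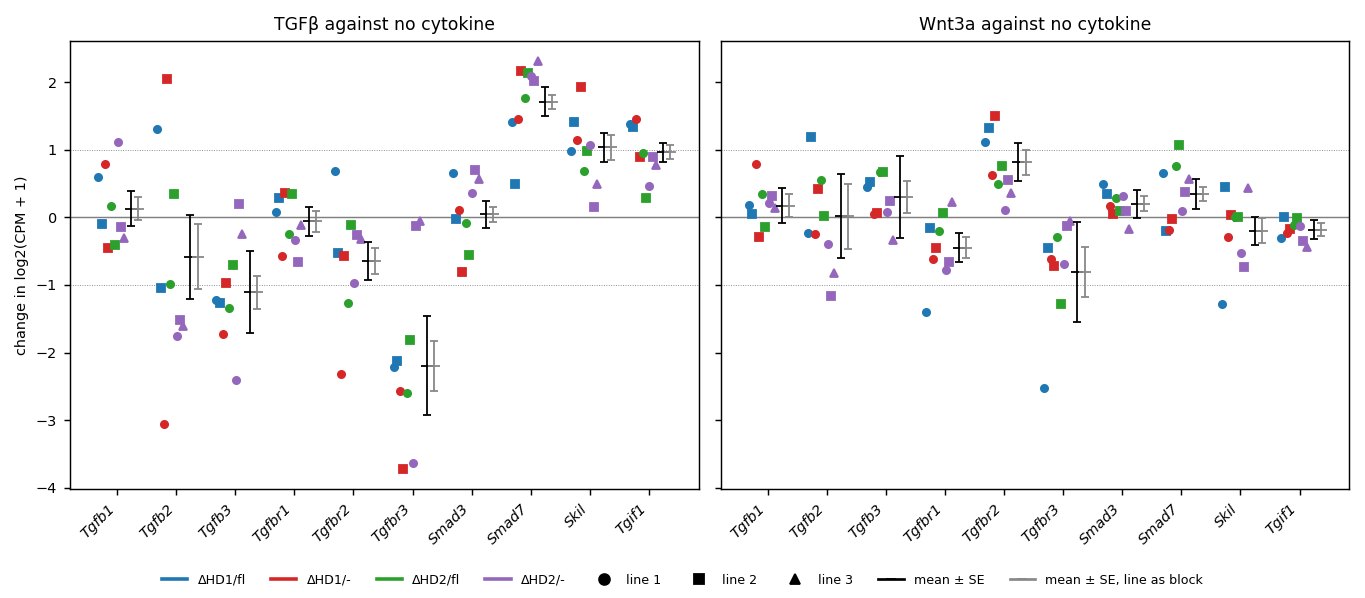
Change of each member with TGFβ (left) and Wnt3a (right) in log2(CPM + 1), 1 point per cell line, with the mean ± SE from the fit without (black) and with (grey) cell line as a block and dotted lines at the fold limit. With TGFβ the points of Smad7, Skil and Tgif1 all lie above 0 and those of Tgfbr3 below in the 7 lines that had the transcript, and with Wnt3a those of Tgfbr2 all lie above 0.

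Of the receptors, Tgfbr3 was lower with TGFβ in all lines that had the transcript. It went from 91.3 to 18.8 and from 176.2 to 39.7 CPM in ΔHD1/fl, and from 47.8 to 7.23 and from 181 to 12.8 CPM in ΔHD1/-. In ΔHD2/fl it went from 16 to 1.81 and from 4.41 to 0.53 CPM, and in ΔHD2/- line 1 from 25 to 1.1 CPM. ΔHD2/- lines 2 and 3 had at most 2 reads before and none after treatment, so their direction says nothing. Treated and untreated ranges overlapped because lines differed so widely, but within the 7 other lines the log2 change was -1.82 to -3.72. The mean log2 change was -2.20 ± 0.73 (adjusted p 0.0483) and rests close to the threshold. The call was lost (adjusted p 0.0672 to 0.142) with ΔHD2/- lines 2 and 3 averaged, with no filter on low values and on leaving out any of the 9 lines except ΔHD2/- line 1 (-1.90, adjusted p 0.0187), without both ΔHD1 lines numbered 2 (-2.07, adjusted p 0.168), with median-of-ratios scaling (-2.06, adjusted p 0.0707), with a pseudocount of 0.1 (-2.59, adjusted p 0.128) and with edgeR on recovered reads (-3.15, adjusted p 0.105). A block for the line, which compares each line with itself, gave an adjusted p of 0.000507, and Tgfbr3 stayed called without both ΔHD1 lines numbered 2 (adjusted p 0.00898). Tgfbr3 overlaps 3 annotated genes on its own strand, whose reads could be counted with it.

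Tgfbr2, the type II receptor whose promoter is printed above, was lower with TGFβ by less and in 8 of 9 lines. It went from 377.9 to 75 CPM in ΔHD1/- line 1 and from 262.8 to 108.6 CPM in ΔHD2/fl line 1, but only from 160.9 to 149.4 in ΔHD2/fl line 2, and from 86 up to 138.8 CPM in ΔHD1/fl line 1. ΔHD1/fl line 1 had the lowest untreated level and was the only line in which the value was higher. The other 5 lines changed by -0.26 to -0.97. The mean log2 change of -0.64 ± 0.28 (adjusted p 0.128) was not called, and with the block the adjusted p was 0.0147 at the same size, under the fold limit. Without both ΔHD1 lines numbered 2 it was -0.71 (adjusted p 0.00833). Tgfbr1 ranged from 27 to 56.4 CPM with TGFβ and from 22 to 83.6 CPM without, with a mean log2 change of -0.06 ± 0.21 that turned to 0.11 with median-of-ratios scaling, and was lower in 5 and higher in 4 lines.

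Among the ligands, Tgfb3 was lower with TGFβ wherever its level had been high. It went from 141.2 to 59.9 and from 168.2 to 69.6 CPM in ΔHD1/fl, from 153.8 to 45.6 and from 77 to 38.7 CPM in ΔHD1/-, and from 150.3 to 58.5 and from 103.3 to 63.3 CPM in ΔHD2/fl. ΔHD2/- line 1 went from 236.8 to 43.7 CPM, while lines 2 and 3 stayed low, at 13.1 and 10.8 CPM. In the 7 lines with high levels treated values were at most 69.6 CPM and untreated values at least 77 CPM. The mean log2 change of -1.11 ± 0.61 was not called without a block (adjusted p 0.226) and was called with it (-1.11 ± 0.24, adjusted p 0.00266), where 8.92% of all genes were called. With the block it was -0.91, under the fold limit, without ΔHD2/- line 1, and -0.94 with median-of-ratios scaling, and it stayed called without both ΔHD1 lines numbered 2 (-1.20, adjusted p 0.0229).

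Tgfb2 responded in opposite directions in different lines. It was higher with TGFβ in ΔHD1/- line 2 (7.33 to 33.5 CPM) and ΔHD1/fl line 1 (2.79 to 8.41 CPM), but lower in ΔHD1/- line 1 (11.7 to 0.52 CPM) and in all ΔHD2/- lines (8.47 to 1.82, 3.02 to 0.41 and 2.3 to 0.083 CPM). The standard deviation of its change over lines was 1.62, the largest of the members, around a mean of -0.58 ± 0.62 (adjusted p 0.562). Leaving out ΔHD1/- line 2 gave -1.22, which with the block was called (adjusted p 0.0244), and leaving out ΔHD1/- line 1 gave 0.06. Tgfb1 (0.13 ± 0.26, adjusted p 0.78) ranged from 9.22 to 60.5 CPM with TGFβ and from 8.1 to 64.6 CPM without. Smad3 (0.05 ± 0.20, adjusted p 0.907) was at 59.5 to 165.9 CPM with TGFβ, higher in 5 and lower in 4 lines, and was higher in all 3 ΔHD2/- lines. Without both ΔHD1 lines numbered 2 the mean log2 changes were 0.37 for Tgfb1, -0.92 for Tgfb2, 0.25 for Smad3 and -0.20 for Tgfbr1, all under the fold limit.

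Taken genotype by genotype, with 2 or 3 lines each, Smad7 in ΔHD2/- was the only call (2.14 ± 0.37, adjusted p 0.00977), against 0.806% of all genes. Line 1 changed by 2.09, line 2 by 2.02 and line 3 by 2.31. The size of the change stayed between 2.05 and 2.29 in the alternatives, but the call was lost when lines 2 and 3 were averaged (adjusted p 0.266), without line 2 (adjusted p 0.183) and without line 3 (adjusted p 0.323). In ΔHD1/fl, ΔHD1/- and ΔHD2/fl no member was called, against 0.211%, 1.43% and 0.286% of all genes. With the block, calls were made in every genotype. In ΔHD1/- 5 members were called (9.33% of all genes), namely Smad7 (1.81), Skil (1.53), Tgif1 (1.18), Tgfbr2 (-1.44) and Tgfbr3 (-3.14), with adjusted p of 0.000277 to 0.023. In ΔHD1/fl it was Tgif1 (1.36, adjusted p 0.0026; 5.42% of all genes), in ΔHD2/fl Smad7 (1.96, adjusted p 0.000468; 5.24%) and in ΔHD2/- Smad7 (adjusted p 3e-05; 6.03%). These differences in the number of calls are not by themselves differences between genotypes. No response difference was called with all 9 lines, and those of Tgfbr2 and Tgfb2 called without both ΔHD1 lines numbered 2 rest on 1 line per ΔHD1 genotype.

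The other genes of the pathway were described from a list of 48, of which 45 were tested. With TGFβ 7 were higher and 1 was lower, against 1.86% of all genes higher and 3.56% lower. The list held known target genes chosen for their response in other systems, and the median change over the 45 genes was 0.14, against -0.16 over all genes. With the block 11 were higher and 3 lower, against 3.02% and 5.9% of all genes. Without both ΔHD1 lines numbered 2, 7 were higher and 2 lower, where 7.79% of all genes were called. Of 11 target genes, 3 were called, all higher. The matricellular protein Ccn2 had a median of 141.9 CPM without and 981.4 CPM with TGFβ (log2 change 3.67 ± 0.48, adjusted p 0.000116), the integrin Itga5 a change of 2.92 ± 0.46 and the cell cycle inhibitor Cdkn1a 1.04 ± 0.33 (0.97, adjusted p 0.114 and not called, without both ΔHD1 lines numbered 2). Klf10, an early target, was lower in all 9 lines without being called (median 102.9 and 57.2 CPM).

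Of 12 further ligand and activation genes 2 were higher and 1 lower. Inhba, the subunit of activin A, which signals through Smad2 and Smad3 by its own receptors, went from a median of 29.8 to 248.3 CPM (2.63 ± 0.44, adjusted p 0.000735). Lrrc32, which tethers latent TGFβ to the cell surface, was barely detected without cytokine (median 0.14 CPM) and reached 2.95 CPM (1.61 ± 0.41, adjusted p 0.0122). The integrin chain Itgb8, which activates latent TGFβ, fell from 19.9 to 7.84 CPM (-1.31 ± 0.43, adjusted p 0.0441; not called with median-of-ratios scaling, adjusted p 0.0753, or without both ΔHD1 lines numbered 2, -1.22, adjusted p 0.12). Of 5 further receptors Acvrl1, a type I receptor, was the only call and stayed low (median 0.03 CPM without and 1.36 CPM with TGFβ, 1.32 ± 0.27). None of 5 Smads and adaptors was called, Smad2 (83.2 and 92.7 CPM) and Smad4 (108 and 117.2 CPM) included.

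Of 12 further inhibitors and regulators of inhibitors, Pmepa1, which keeps Smad2 and Smad3 from the receptor, was the only call (median 432.9 and 719.5 CPM, 1.42 ± 0.36, adjusted p 0.0132). The ubiquitin ligase genes Smurf1 (178.3 and 302.5 CPM) and Smurf2 (118.7 and 170.1 CPM), the receptor-binding Fkbp1a (196.6 and 294.4 CPM) and Ldlrad4 (36.1 and 43.9 CPM) were higher in 9 of 9 lines but under the fold limit. The ligase gene Nedd4l went the other way, with medians of 82.2 and 45.2 CPM and a higher value in 2 of 9 lines (-0.71 ± 0.26, adjusted p 0.0712), and Wwp1 (38.8 and 36.2 CPM) was higher in 3 of 9. Rnf111, a ligase known to remove Smad7, Ski and Skil and so to favour signalling, had medians of 54 and 65.9 CPM and was higher in 9 of 9 lines. Ski, the relative of Skil, had medians of 167.4 and 148.9 CPM and was higher in 4 of 9 lines.

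**Figure D4:**
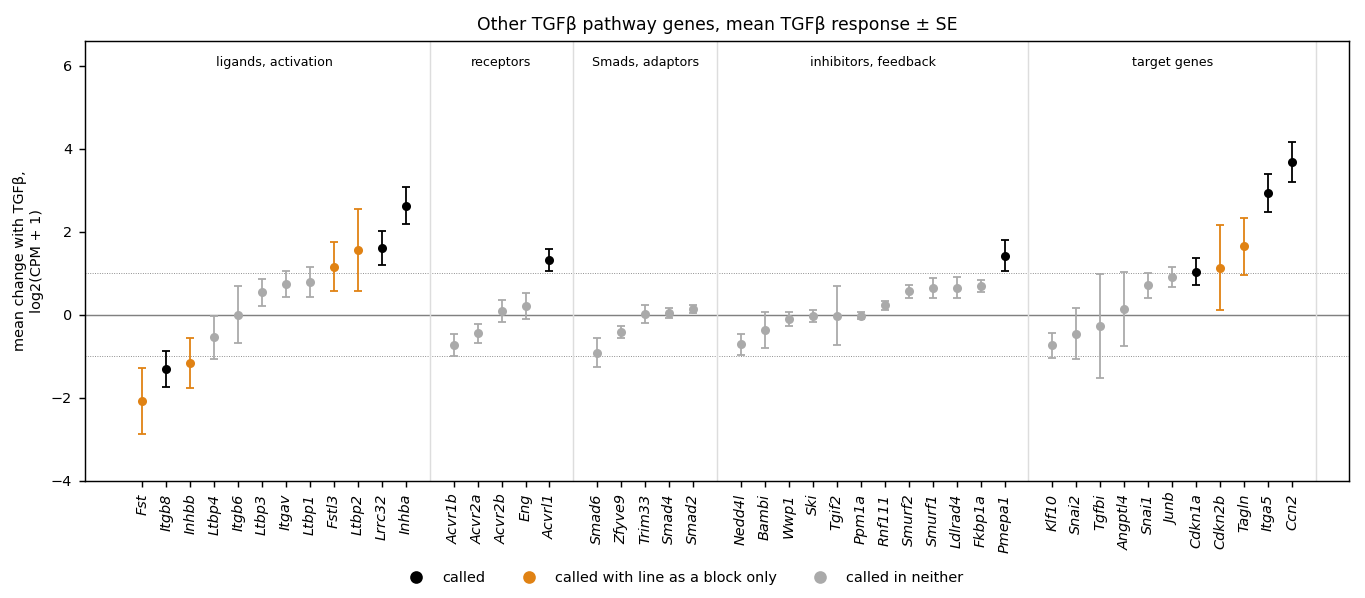
Mean change with TGFβ ± SE in log2(CPM + 1) of 45 other pathway genes, ordered within role, in black where called, in orange where called with cell line as a block only, and in grey where called in neither fit. Ccn2, Itga5 and Inhba show the highest means, and the Smads and adaptors all lie between the dotted lines at the fold limit.

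Wnt3a changed no member past the thresholds. None of the 10 members was called in the mean over genotypes, where only 0.0226% of all genes (3 genes) were called and 614 genes had an unadjusted p of at most 0.05, and none by edgeR, with the block (0.241% of all genes) or in a single genotype (0.0151% of all genes for ΔHD1/fl, 0.00754% for both recombined genotypes and 0.113% for ΔHD2/fl). The Wnt target Axin2, looked at because of this low count, was higher with Wnt3a in 9 of 9 lines, with a median of 0.68 CPM without and 32.9 CPM with the ligand. Of the 45 other pathway genes none was called either. All Wnt3a and TGFβ changes share the untreated libraries.

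Tgfbr2 was higher with Wnt3a in every line, and its mean change was opposite in sign to that with TGFβ. Its level went from 86 to 187.2 and from 313.4 to 783.8 CPM in ΔHD1/fl, and from 377.9 to 586.8 and from 284.7 to 807.1 CPM in ΔHD1/-. In ΔHD2/fl it went from 262.8 to 371.3 and from 160.9 to 272.6 CPM, and in ΔHD2/- from 187.1 to 202.4, from 144.8 to 213.4 and from 152.6 to 196.5 CPM. The value was thus higher in 9 of 9 lines, from a ratio of 1.08 in ΔHD2/- line 1 to 2.84 in ΔHD1/- line 2, and most in the 2 lines low in Cdh1, while the ranges overlapped. The mean log2 change was 0.81 ± 0.28 (unadjusted p 0.00994, adjusted p 0.86). With the block it was 0.81 ± 0.19 (adjusted p 0.0712), or 0.89 with median-of-ratios scaling as well (adjusted p 0.0496). Without both ΔHD1 lines numbered 2 it was 0.68 (adjusted p 0.0829, and 0.0499 with the block), under the fold limit in each case.

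Tgfbr3 was lower with Wnt3a in the 7 lines that had it, from 91.3 to 15.1 CPM in ΔHD1/fl line 1, and from 4.41 to 1.23 CPM in ΔHD2/fl line 2. In the other 5 of these lines the log2 change was -0.29 to -0.72, and the mean over genotypes was -0.81 ± 0.73 (unadjusted p 0.286, adjusted p 1). Smad7 changed by -0.21 to 1.07, with the highest values in ΔHD2/fl, where it went from 47.4 to 81.1 and from 41.9 to 89.2 CPM, and with a mean of 0.35 ± 0.22. Tgif1 (-0.18 ± 0.14) was lower in 8 of 9 lines by at most 0.44, and Skil ranged from -1.28 in ΔHD1/fl line 1 to 0.46 in ΔHD1/fl line 2. Tgfbr1 was lower in 7 of 9 lines (-0.45 ± 0.21), Tgfb3 (0.30 ± 0.61) and Smad3 (0.20 ± 0.20) were higher in 8 of 9, Tgfb1 was 0.17 ± 0.26, and Tgfb2 ranged from -1.17 to 1.19. Without both ΔHD1 lines numbered 2 the means were -0.46 for Skil, 0.33 for Tgfb1 and, with the block, 0.43 for Smad7 (adjusted p 0.0291) and -0.62 for Tgfbr1 (adjusted p 0.0527). With the block and without ΔHD1/fl line 2 alone, Smad7 (0.45, adjusted p 0.021), Tgfbr1 (-0.60, adjusted p 0.0359) and Tgfbr2 (0.79, adjusted p 0.0373) also had an adjusted p of at most 0.05. None of these was called, since the changes lay under the fold limit.

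Genes with the most similar levels were found by Pearson correlation of log2(CPM + 1) over the 27 libraries, which share cell lines and treatments. For each member the tested genes with the highest correlation are named, as a description, 1 for Tgfbr1 and 2 for the others. Tgif1 was closest to Cttnbp2nl (0.964) and Sox4 (0.941), Smad7 to Kctd13 (0.912) and Cnnm4 (0.883), and Skil to Zbtb38 (0.911) and Riok2 (0.894). Tgfbr3 was closest to Gstm1 (0.955) and the oestrogen receptor Esr1 (0.941), Tgfbr2 to Prrx2 (0.865) and Slc25a12 (0.839), and Tgfbr1 to Eif4a2 (0.878). Tgfb3 was closest to 4930412O13Rik (0.948) and the luminal transcription factor Gata3 (0.937), Tgfb2 to Med27 (0.852) and Lima1 (0.822), and Tgfb1 to Arfgap3 (0.847) and Epb41l1 (0.831). Smad3 had the weakest partners, Sfxn5 (0.758) and Ano8 (0.757).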

How the data were processed

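RNA-sequencing was done in 27 libraries of 9 mouse tumour cell lines. Per the labels and the methods of the study, the authors made stranded mRNA libraries, mapped the single reads uniquely with STAR (mm10), used QuasR to count them over exons of RefSeq genes, and deposited CPM values, that is, reads per 1000000 assigned to genes. Whether counting used strand is not given in the sources used here. Values were whole multiples of 1 read (100% within a tolerance of 0.02), so reads were recovered for edgeR 4.0.16. For 80 of 24454 identifiers no symbol was found. The floor of 3 reads covers counting error only.

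The filter kept genes reaching 1 CPM in 2 or more libraries. Tests were made with limma 3.58.1 in R 4.3.3 (trend and robust settings, 12 group means in 1 fit) on log2(CPM + 1), where the pseudocount makes the changes of genes with few reads look smaller. Fold changes are means over the genotypes unless a genotype is named. Libraries with the same number within a genotype are 1 cell line under 3 treatments, since per the labels replicates are lines from different mice, and they deviated from the group means together (correlation across genes 0.509 to 0.94). Treatment comparisons were therefore also fitted with the line as a block. Alternatives tried were median-of-ratios scaling, edgeR, a pseudocount of 0.1, no filter, no fold limit, averaging ΔHD2/- lines 2 and 3, and leaving out 1 line at a time. Leaving out both ΔHD1 lines numbered 2, and the block with no fold limit or with 1 line left out, were chosen after seeing the data. Tests were tried on simulated counts. Gene positions are from GENCODE M21 (GRCm38).

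The members and gene lists were chosen with earlier results of these data known. All members are named, and of the other pathway genes, in each of 5 role lists, those called in a mean response (at most 4 a list). Klf10, Smad2, Smad4, Smurf1, Smurf2, Rnf111, Nedd4l, Wwp1, Fkbp1a, Ldlrad4, Ski and Axin2 were named after their values were seen. A target gene of the pathway list and a gene similar to Tgfbr1 are not reported here, and the counts over the list leave the former out.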

Additional observations from a re-analysis of the deposited data

Results flagged for a closer look

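In 20 groups of changes (10 members, 2 cytokines, 9 lines each) the lowest and the highest line were compared with the others by Dixon's test at the 95% level, which chance passes in about 1 of 20 groups. The change of Smad7 with TGFβ in ΔHD1/fl line 2 (0.5 on the log2 scale, 78.7 to 111.5 CPM) stood below that of the other lines. This is 1 of the 2 lines low in Cdh1, and ΔHD1/- line 2, the other, changed by 2.16. The change of Tgfbr3 with Wnt3a in ΔHD1/fl line 1 (-2.52, 91.3 to 15.1 CPM) stood below that of the other lines. That comparison included ΔHD2/- lines 2 and 3, whose changes near 0 (-0.12 and -0.06) come from at most 2 reads, so the flag rests in part on them. ΔHD1/fl line 1 also had the largest falls of Tgfbr1 (-1.40) and Skil (-1.28) with Wnt3a.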

How the results depend on the processing

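The direction of the changes of Smad7, Skil, Tgif1, Tgfb3, Tgfbr2 and Tgfbr3 with TGFβ was the same in all alternatives, while the calls of Skil, Tgif1, Tgfb3 and Tgfbr3 moved as given above. The sign turned for small changes. For Tgfb2 with Wnt3a it was -0.0724 with a pseudocount of 0.1 and -0.25 without both ΔHD1 lines numbered 2 (with or without the block), and for Tgfbr1 with TGFβ 0.0501 with edgeR, 0.10 with edgeR and the block, and 0.11 with median-of-ratios scaling (with or without the block). On leaving out 1 line, Skil with Wnt3a ranged from -0.42 to 0.0173, Smad3 with TGFβ from -0.0695 to 0.16, Tgfb1 with TGFβ from -0.0243 to 0.28, Tgfb2 with TGFβ from -1.22 to 0.0589, Tgfb2 with Wnt3a from -0.16 to 0.19 and Tgfbr1 with TGFβ from -0.18 to 0.0576. The cause was not tested.

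With cell line as a block, 4 members were called in the mean TGFβ response (6 with no fold limit) in place of 3, against 8.92% (47.6% with no fold limit) in place of 5.42% of all genes, and 14 other pathway genes in place of 8. The share of all genes called is given in parentheses after each count that follows in this paragraph. Members called with TGFβ were, in ΔHD1/fl, 1 with the block (5.42%), 1 with median-of-ratios scaling (0.226%) and 3 with the block and either median-of-ratios scaling (4.82%) or edgeR (5.84%), in place of 0 (0.211%). In ΔHD1/- they were 5 with the block (9.33%), 4 with the block and median-of-ratios scaling (7.75%) or edgeR (9.41%), 2 with median-of-ratios scaling (1.1%) and 1 with edgeR (0.528%), in place of 0 (1.43%). In ΔHD2/fl they were 1 with the block (5.24%), 1 with the block and median-of-ratios scaling (4.9%) and 2 with the block and edgeR (4.49%), in place of 0 (0.286%), and in ΔHD2/- 2 with the block and edgeR (8.44%) and 0 with lines 2 and 3 averaged (0.0453%), in place of 1 (0.806%). The recombined lines were made from floxed cells, but whether from the line of the same number is not given in the sources used here (correlation of deviations 0.0871 to 0.472, 2 pairs a family, and both ΔHD1 lines numbered 2 were low in Cdh1). With that number as a block, Smad7 in ΔHD1/- against ΔHD1/fl under Wnt3a was called (1 member, 0.309% of all genes, in place of 0, -1.80, adjusted p 0.0225, also with median-of-ratios scaling, -1.83, adjusted p 0.0435), and no other such call changed. Leaving out both ΔHD1 lines numbered 2 leaves 1 line per ΔHD1 genotype, and the members called for ΔHD1/- against ΔHD1/fl were then 1 without cytokine (1.47%) and 2 with Wnt3a (4.87%), and with the block, here a single ΔHD1 pair, 2 (4.18%), 2 (9.22%) and, with TGFβ, 1 (11%), in place of 0. The difference in TGFβ response between these genotypes had 1 such member (0.208%) and 2 with the block (3.71%), in place of 0. In the TGFβ response itself, ΔHD1/- had 1 (2.27%, or 4 with the block, 12.3%), ΔHD2/fl 1 (1.32%, or 1 with the block, 7.76%), ΔHD1/fl 2 with the block (12.6%) and ΔHD2/- 2 with the block (7.11%).

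On leaving out 1 line, the members called ranged from 1 to 2 in the mean TGFβ response (2 to 5 with the block), 0 to 3 for ΔHD1/- lines with TGFβ, and 0 to 1 for each other genotype. For ΔHD1/- against ΔHD1/fl they ranged from 0 to 2 without cytokine and with Wnt3a, and for ΔHD2/- against ΔHD2/fl from 0 to 1 under each treatment. The share of all genes called in these fits with 1 line left out is not given here, so these counts do not set the members apart from other genes. Depth limited Tgfbr3 in ΔHD2/- lines 2 and 3 and the lowest Tgfb2 values.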
